A study of Mus musculus with 8 samples.

Results

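The genes for the 3 chains of fibrinogen (Fga, Fgb and Fgg) and 4 apolipoprotein genes (Apoa1, Apoc3, Apoa4 and Apoa5) were examined in maps of H3K27me3, the trimethyl mark that Polycomb repressive complex 2 places on lysine 27 of histone H3. The 7 genes were named together with 2 windows of 55 kb meant to hold them. These ran from 82805001 to 82860000 on chromosome 3 and from 46030001 to 46085000 on chromosome 9 of the mouse build mm9. The edges are approximate. There were 2832 windows of that size on chromosome 3 and 2194 on chromosome 9, laid end to end between the outermost islands, so the pair is 2 of many. In the gene table used here, of assembly GRCm38.p6, the fibrinogen genes lie in the order Fgg, Fga, Fgb over 42.1 kb and the apolipoprotein genes in the order Apoa1, Apoc3, Apoa4, Apoa5 over 43.3 kb. No other protein-coding gene lies inside either cluster there, and both spans would fit in a window.

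Whole livers of 7-week-old male mice of the outbred CD-1 stock gave the chromatin. The TCPOBOP group received 3 mg/kg of TCPOBOP, an agonist of the nuclear receptor CAR, and the vehicle group received corn oil with 1% DMSO. All livers were taken after 3 h, each ChIP used 1 liver, and the mice are labelled with no genotype. Each group had 3 libraries of 600 to 1100 bp fragments, digested to 500 bp, and 1 library of fragments over 1100 bp, digested to 200 bp, from the ChIP sample of replicate 1. Livers are numbered by replicate, and values listed for a treatment are in that order. A whole liver mixes hepatocytes with other cells, and a mark in few cells cannot be told apart from a weak mark in many.

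H3K27me3 is found over genes held silent in a cell type, and in mammals its domains often centre on promoters rich in CpG dinucleotides. Hepatocytes secrete fibrinogen, the clotting protein that thrombin turns into fibrin, and its genes are induced together in the acute phase response. The apolipoproteins of the chromosome 9 cluster are carried on lipoproteins made by liver and intestine. ApoA-I is the main protein of high-density lipoprotein. ApoC-III slows the clearance of triglyceride, ApoA-V promotes its lipolysis, and ApoA-IV is a lipoprotein component made in quantity by the intestine.

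The bases before 4 of the genes are shown because they carry the CpG content that the rule did not use. They are the 250 bases up to each gene's start in RefSeq, build GRCm38.p6, so their coordinates do not compare with the mm9 positions of the islands. Fga (chr3:83025903-83026152, plus strand) and Fgb (chr3:83049864-83050113, minus strand) encode the alpha and beta chains. Apoa1 (chr9:46228380-46228629, plus strand) and Apoa4 (chr9:46240594-46240843, plus strand) bound the CpG counts of the apolipoprotein promoters. Capitals mark CpG dinucleotides.
Fga: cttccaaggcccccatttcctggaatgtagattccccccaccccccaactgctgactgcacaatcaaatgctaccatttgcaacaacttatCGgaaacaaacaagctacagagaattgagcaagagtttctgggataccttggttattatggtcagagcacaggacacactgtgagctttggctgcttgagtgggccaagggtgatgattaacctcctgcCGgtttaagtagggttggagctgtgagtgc
Fgb: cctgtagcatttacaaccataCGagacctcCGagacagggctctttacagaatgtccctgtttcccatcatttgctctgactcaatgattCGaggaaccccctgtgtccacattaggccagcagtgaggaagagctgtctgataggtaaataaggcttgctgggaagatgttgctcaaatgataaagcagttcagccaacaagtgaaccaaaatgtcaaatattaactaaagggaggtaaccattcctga
Apoa1: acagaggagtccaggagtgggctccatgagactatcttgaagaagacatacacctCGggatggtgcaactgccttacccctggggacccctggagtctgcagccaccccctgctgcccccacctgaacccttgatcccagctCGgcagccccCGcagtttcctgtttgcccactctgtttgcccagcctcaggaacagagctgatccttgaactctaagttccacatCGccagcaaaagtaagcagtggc
Apoa4: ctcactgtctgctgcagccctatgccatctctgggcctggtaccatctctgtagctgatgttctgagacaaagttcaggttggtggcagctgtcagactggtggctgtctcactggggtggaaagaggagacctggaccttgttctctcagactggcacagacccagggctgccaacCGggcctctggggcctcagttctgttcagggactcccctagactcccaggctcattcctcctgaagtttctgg

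The members' promoters held few CpG dinucleotides. Apoa4 had 1, Fga 2, Fgb 3, Apoa5 3 and both Fgg and Apoa1 4 in 250 bases. RefSeq lists a further start for Apoa5, also with 4. The median over 32851 promoter entries was 6, with quartiles of 2 and 16. Thus 6 of the 6 members with an entry lay under the median, Apoa4 with 18.8% and Apoa1 with 44.4% of entries at or below its count. The protein-coding genes next to the clusters had more. The 4 protein-coding neighbours on each side of each cluster had 19 promoter entries, 4 of them of Pafah1b2, and 16 of the 19 lay above the median. Plrg1, a splicing factor gene next to Fgb, had 28, and Sik3, a kinase gene next to Apoa1, had 32. Lrat, which encodes a retinol-esterifying enzyme and lies next to Fgg, had 18, and Zpr1, next to Apoa5, had 7. For comparison, the 10 entries of Hoxa genes, classical Polycomb targets, ranged from 3 to 35 with a median of 15.5.

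Short motifs of hepatocyte and acute phase promoters were searched on both strands of the same 250 bases. GTTAAT, part of the site recognised by the hepatic factor HNF1, occurred in Fga from -43 to -38 and in Fgb from -29 to -24, counted from the gene's start, and in 6.43% of all entries. CTGGGAA, the core of the interleukin-6 response element of acute phase genes, occurred in Fgb from -91 to -85 and in Fgg from -13 to -7, and in 9.10% of all entries. That motif was chosen after the sequences had been seen. TATAAA, the TATA box core, occurred in Apoa5 from -31 to -26, or from -56 to -51 counted from its further start. It occurred in 12.4% of all entries. These are matches of letters and not measured binding.

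No H3K27me3 island touched either window in any library. The fibrinogen window lay 0% under islands in all 3 vehicle livers, all 3 TCPOBOP livers and both libraries of fragments over 1100 bp, and so did the apolipoprotein window. There was therefore no difference between treatments in the windows to test. An island is a run of enriched 400 bp stretches that the authors' caller joined, so 0% means that none was listed and does not give the level of the mark. Islands covered 174 to 340 Mb in the 6 libraries of 600 to 1100 bp, and 654 and 676 Mb in those of fragments over 1100 bp. Read depth is not in the lists.

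A window free of islands was common on these chromosomes. On chromosome 3, 68.6% of windows of 55 kb were at 0% in all 6 libraries of 600 to 1100 bp, and 51.2% were at 0% in all 8 libraries. On chromosome 9 the shares were 48.7% and 35.1%. By library, 57.4 to 88.0% of chromosome 3 windows and 40.4 to 75.4% of chromosome 9 windows were at 0%, the lowest shares being those of fragments over 1100 bp, whose lists cover more. Being at 0% in all 8 libraries, as the members' windows were, was thus shared with just over 1 in 2 windows of chromosome 3 and with a minority, 35.1%, of chromosome 9.

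**Figure D1:**
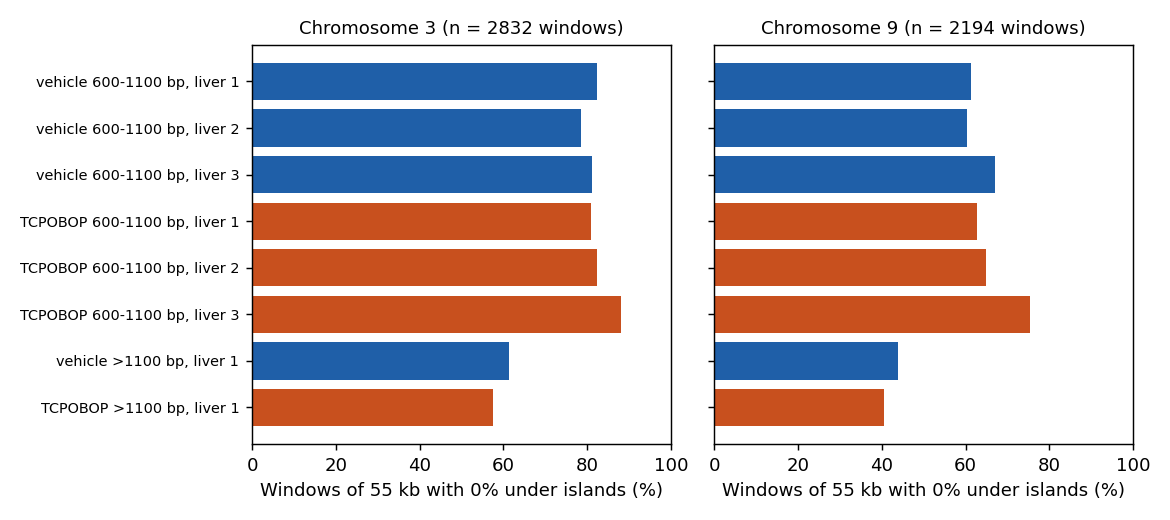
Percent of end-to-end windows of 55 kb with 0% under islands (x axis) in each library (y axis), blue for vehicle and orange for TCPOBOP, on chromosome 3 (left panel, 2832 windows) and chromosome 9 (right panel, 2194 windows). The bars run from 57.4 to 88.0% on chromosome 3 and from 40.4 to 75.4% on chromosome 9, so a window without islands, such as those over the 7 genes, was common.

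Other loci of secreted liver proteins also lay outside islands. Approximate windows over Alb and Afp, over Apob, which encodes the structural protein of very-low-density lipoprotein, and over the Apoe and Apoc cluster were each at 0% in all 8 libraries. The HoxA window was at 100% in all 8, which shows that the same lists did hold Polycomb domains. These windows came from general knowledge of the build and their edges were not checked against an mm9 annotation. Over all autosomes, 58.8% of end-to-end windows were at 0% in all 6 livers, a share that leaves out the libraries of longer fragments. Being at 0% in all 6 livers therefore does not by itself set the Alb and Afp, Apob or Apoe and Apoc loci apart. The windows over these loci were 65, 50 and 55 kb long. The share of autosomal windows at 0% in all 8 libraries was not computed. Expression was not measured here, so whether the genes in these windows were active was not tested.

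Islands lay close to the fibrinogen window. On its right, toward higher coordinates, the nearest island began 39.2, 40.4 and 23.6 kb away in vehicle livers 1, 2 and 3, and 39.6, 40.8 and 40.0 kb away in TCPOBOP livers 1, 2 and 3. The libraries of fragments over 1100 bp gave 39.2 kb for vehicle and 38.8 kb for TCPOBOP. Thus 7 of 8 libraries placed it within 2 kb of each other, and vehicle liver 3 alone listed a nearer island. That nearer island ranked 12217 of 12430 by the authors' score in its list. Behind it, vehicle liver 3 also held an island at 40.0 kb.

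The island at about 40 kb was shared by all 8 libraries over a core of 5.2 kb, from 82900801 to 82906000 on chromosome 3. Its start, which faces the window, varied over 1.6 kb among the 6 libraries of 600 to 1100 bp. Of 420 edges of islands around such shared cores on chromosome 3, 4.52% varied as little, and the median was 15.0 kb. It was the least varied of the edges that face either window around the nearest shared cores. The island was narrow, 5.60 to 10.8 kb in these 6 libraries and 26.0 and 26.4 kb in the libraries of fragments over 1100 bp. Where it was the nearest right island, it ranked from 6254 of 13759 by score in TCPOBOP liver 1 to 9392 of 10057 in vehicle liver 1, and 4640 of 17577 and 4680 of 22077 in the libraries of fragments over 1100 bp. Its place thus ran from the upper part of the list to near its end. In TCPOBOP livers 1 and 3 its scores of 83.8 and 84.3 fell just under 84.6, the highest of the 6 lists' lowest scores, and with that minimum the right distances became 70.0 and 143 kb.

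On the left of the fibrinogen window the nearest island ended 3.8, 93 and 95 kb away in vehicle livers 1, 2 and 3, and 92.6, 92.2 and 118 kb away in TCPOBOP livers 1, 2 and 3. The libraries of fragments over 1100 bp gave 4.20 kb for vehicle and 79.8 kb for TCPOBOP. Vehicle liver 1 stood apart from the other livers in both of its libraries, which were made from the same ChIP sample. Its near island ranked 10001 of 10057 in the library of 600 to 1100 bp and 17480 of 17577 in that of fragments over 1100 bp, so it was among the weakest listed in each. The nearest left core shared by all 8 libraries lay 122 kb away, from 82676001 to 82683200. The edge that faces the window there varied over 5.6 kb among the libraries of 600 to 1100 bp. Of the 420 such edges on chromosome 3, 16.4% varied as little.

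The stretch around the fibrinogen window with no island in any of the 8 libraries was 82.4 kb, from 82801201 to 82883600. Of such stretches on chromosome 3, 21.2% were as long, and they held 59.9% of the chromosome between its outermost islands. Within single libraries the island-free stretch ran from 98 to 213 kb. Of the windows at 0% in the same library, 88.7 to 95.0% sat in a stretch at least as long. An island as near was found on the left of 0.644 to 23.7% of these windows and on the right of 5.50 to 12.5%. The fibrinogen window was thus closer to H3K27me3 islands than most island-free windows of its chromosome.

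The 500 kb on either side of the fibrinogen window were covered above the chromosome mean in all libraries but 1, on the left of TCPOBOP liver 3. For vehicle, islands took 16.7, 16.8 and 11.4% of the left flank and 14.9, 7.44 and 11.1% of the right. For TCPOBOP they took 10.6, 16.5 and 2.24% of the left and 16.5, 22.9 and 14.0% of the right. The mean cover of chromosome 3 windows was 4.33 to 7.36% in these libraries. TCPOBOP liver 3, the list with the least covered length, had the lowest left flank, under its own chromosome mean of 4.33%. The cover on the right lay within 250 kb of the window in 5 of 6 livers, where the band from 250 to 500 kb held 0%, against 8% in TCPOBOP liver 2.

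In the libraries of fragments over 1100 bp the contrast was wider. The flanks averaged 61.7% for vehicle and 63.8% for TCPOBOP, against a chromosome mean of 20.5 and 21.0%. Of 1719 and 1610 windows at 0% there, 12 and 4 had flanks covered as much, or 0.698 and 0.248%, where the medians were 6.52 and 7.40%. Read the other way, 65 and 41 windows of the chromosome had flanks covered as much, and 18.5 and 9.76% of them were at 0%. In the libraries of 600 to 1100 bp the contrast was less: 5.19 to 15.0% of windows at 0% had flanks covered as much. These 2 libraries came from 2 livers and were the only libraries of that fragment class, so this pattern has no replicate within a treatment.

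**Figure D2:**
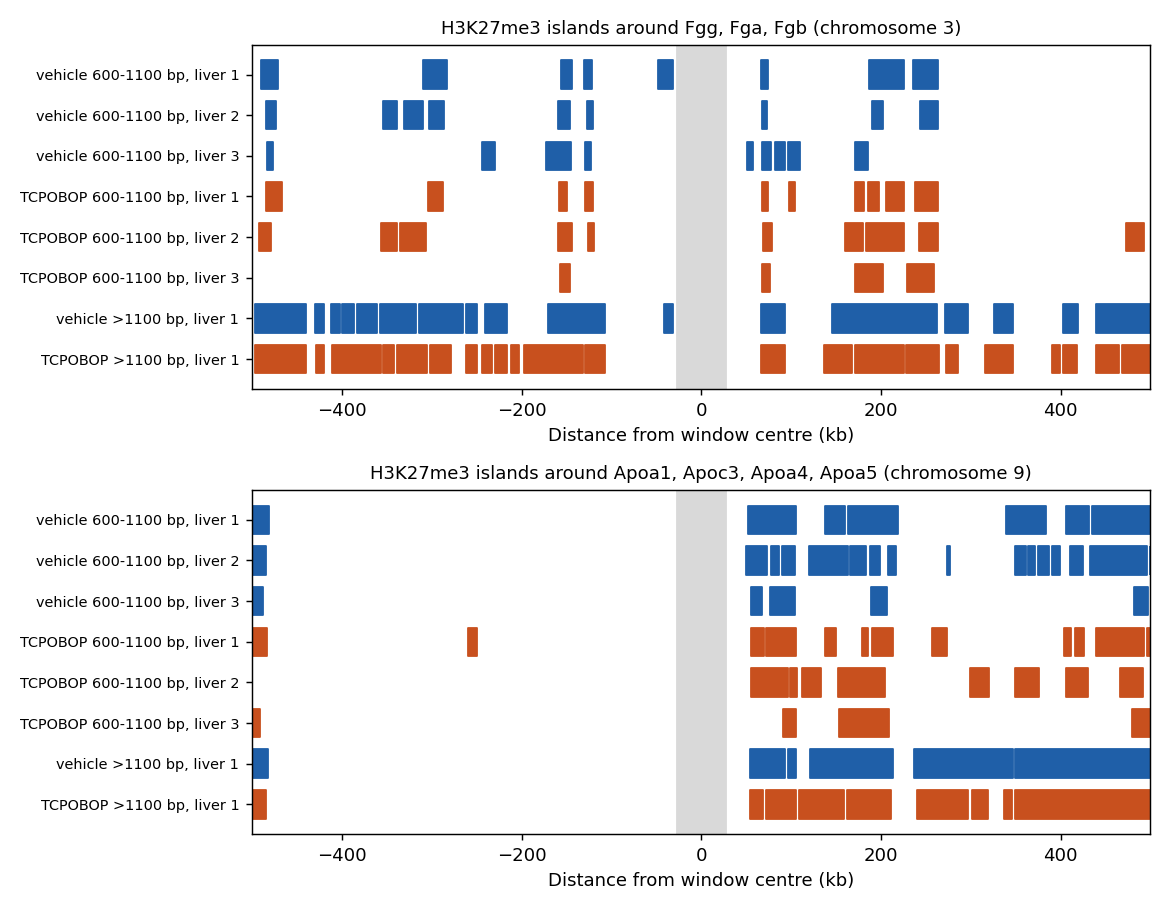
H3K27me3 islands (bars) in each of the 8 libraries (rows, blue for vehicle and orange for TCPOBOP) by distance from the centre of the window in kb, with the 55 kb window in grey. Neither window holds an island, the island about 40 kb to the right of the fibrinogen window recurs in every row, and the left side of the apolipoprotein window is empty for at least 454 kb in 7 of 8 rows.

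The apolipoprotein window stood near the right end of an island-free stretch, most of which lay to its left. On its left, the nearest island ended 454, 456 and 461 kb away for vehicle and 222, 502 and 464 kb away for TCPOBOP. The libraries of fragments over 1100 bp gave 455 kb for vehicle and 456 kb for TCPOBOP. TCPOBOP liver 1 was the exception. Its nearer island was 9.60 kb wide and ranked 12373 of 13759, and the next island on that side, by the score minimum of 84.6, ended 456 kb away. Of chromosome 9 windows at 0% in the same library, 44.8 to 78.1% had an island as near on their left. The left distance was thus ordinary for an island-free window.

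In the libraries of fragments over 1100 bp that left border was the end of a domain of 350 kb in the vehicle liver, ending at 45575200, and of 348 kb in the TCPOBOP liver, ending at 45573600. These domains ranked 50 of 17577 and 46 of 22077 by score. The stretch with no island in any of the 8 libraries ran from 45807601 to 46107600, and 4.35% of such stretches on chromosome 9 were as long. They held 23.4% of the chromosome between its outermost islands, and the island of TCPOBOP liver 1 set its left end. Within single libraries the stretch ran from 306 to 586 kb. It was shorter than the median for chromosome 9 windows at 0% in 7 of 8 libraries, the exception being the TCPOBOP library of fragments over 1100 bp, at 538 against 430 kb. Of the windows at 0% in the same library, 45.3 to 75.5% sat in a stretch at least as long, so its length was ordinary for an island-free window.

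On the right of the apolipoprotein window, islands began nearby. The nearest was 24.2, 22.6 and 27.8 kb away for vehicle and 28.2, 28.2 and 63.8 kb away for TCPOBOP, and 26.2 kb away in both libraries of fragments over 1100 bp. All 3 vehicle livers lay below all 3 TCPOBOP livers, but vehicle liver 3 and TCPOBOP livers 1 and 2 differed by 0.4 kb, a single step of the 400 bp grid. TCPOBOP liver 3 lay apart from the other 5. Of chromosome 9 windows at 0% in the same library, 7.58 to 15.2% had an island as near on their right. A core on that side was shared by all 6 libraries of 600 to 1100 bp from 46148801 to 46154000, 63.8 kb from the window. The edge that faces the window there varied over 39.6 kb among these libraries. Of 814 such edges on chromosome 9, 68.9% varied as little, and the median was 24.0 kb. At the nearest shared core on the left the edge varied over 9.2 kb, and 16.3% varied as little.

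The flanks of the apolipoprotein window were uneven. Islands took 8.40, 5.68 and 2.72% of the left 500 kb for vehicle and 8.00, 0 and 4.40% for TCPOBOP. They took 58.9, 53.7 and 14.7% of the right 500 kb for vehicle and 40.5, 44.8 and 18.5% for TCPOBOP. The right flank was the more covered in 8 of 8 libraries, by 12 to 50.5 percentage points in the libraries of 600 to 1100 bp and by 76.8 and 73.4 in those of fragments over 1100 bp. A flank difference as large was found at 2.48 to 27.8% of chromosome 9 windows in the former and at 1.24 and 1.98% in the latter. Vehicle liver 3 and TCPOBOP liver 3, the lists with the least covered length of their groups, had the smallest differences.

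**Figure D3:**
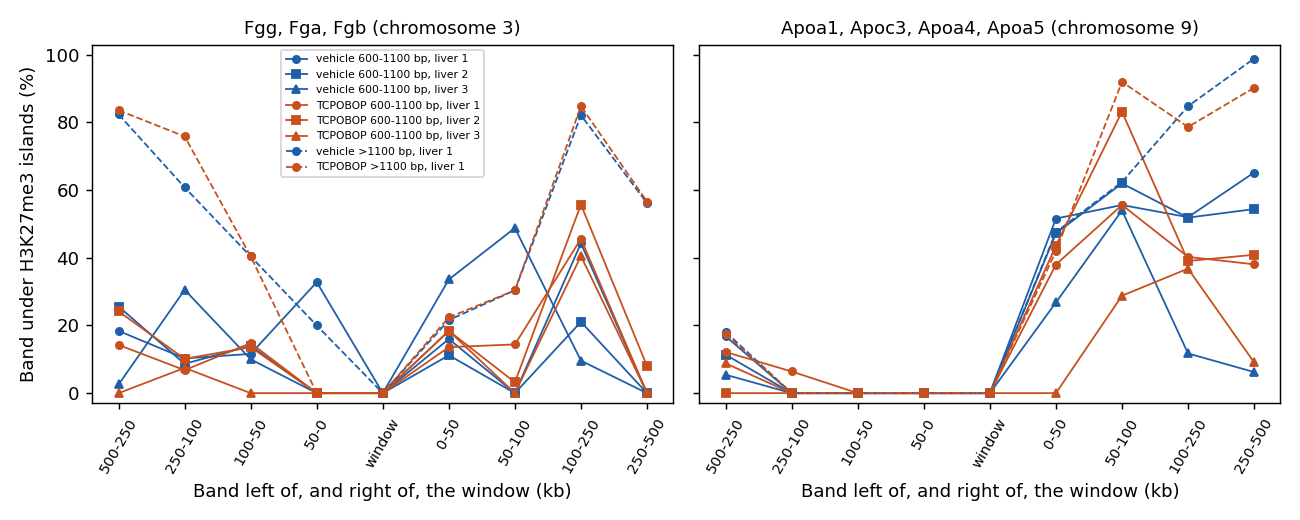
Percent of each band under islands (y axis) by distance in kb to the left and right of the window (x axis), for the fibrinogen (left panel) and apolipoprotein (right panel) windows; blue is vehicle, orange TCPOBOP, circles, squares and triangles are replicates 1, 2 and 3, and dashed lines are fragments over 1100 bp. All 8 lines meet 0% at the windows, and in the right panel the bands up to 100 kb on the left are at 0% while those from 50 to 100 kb on the right are at 28.8 to 92.0%.

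In bands, the change on the right of the apolipoprotein window was steep. From 0 to 50 kb right of the window, islands took 51.6, 47.2 and 26.8% for vehicle and 38.0, 43.6 and 0% for TCPOBOP. From 50 to 100 kb they took 28.8 to 83.2% in the 6 livers. On the left, all 8 libraries had 0% in both bands. Beside the fibrinogen window the first 50 kb on the right held 11.2 to 33.6% in all 8 libraries. The first 50 kb on the left held 0% in all libraries but those of vehicle liver 1, where the library of 600 to 1100 bp held 32.8%.

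The comparison of treatments asked whether TCPOBOP shifted H3K27me3 islands around these genes within 3 h. Two-sided exact permutation tests were made for 10 measures, and with 3 livers against 3 none could give a p under 0.1. The right distance of the apolipoprotein window averaged 24.9 ± 2.66 kb in vehicle livers (SD, n = 3) and 40.1 ± 20.6 kb in TCPOBOP livers (SD, n = 3). It was 15.2 kb longer with TCPOBOP, at an exact permutation p of 0.1, or 0.667 adjusted over the 10 tests. That difference was smaller than the spread within the TCPOBOP group. It fell to 3.33 kb without TCPOBOP replicate 3, and with both libraries of each replicate 1 merged the treatments overlapped. On chromosome 9, 15.5% of the sides of windows at 0% in all 6 libraries showed distances that did not overlap, and on chromosome 3 6.13% did. Of the 4 sides of the members' windows, 1 did. In the cover of the windows themselves, 1.62% of chromosome 3 windows and 2.32% of chromosome 9 windows did not overlap between treatments, and neither of the members' windows was among them, both being at 0% throughout.

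The left distance of the apolipoprotein window averaged 457 ± 3.45 kb in vehicle livers (SD, n = 3) and 396 ± 152 kb in TCPOBOP livers (SD, n = 3), at an exact permutation p of 1. The difference of -60.9 kb rested on TCPOBOP replicate 1, without which it was 25.9 kb. For the fibrinogen window the left distance averaged 63.9 ± 52.1 kb in vehicle livers (SD, n = 3) and 101 ± 14.9 kb in TCPOBOP livers (SD, n = 3), at an exact permutation p of 0.6. The difference of 37.1 kb rested on vehicle replicate 1, without which it was 7.00 kb. Its right distance averaged 34.4 ± 9.37 kb in vehicle livers (SD, n = 3) and 40.1 ± 0.611 kb in TCPOBOP livers (SD, n = 3), at an exact permutation p of 0.4. The difference of 5.73 kb became 0.333 kb without vehicle replicate 3.

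**Figure D4:**
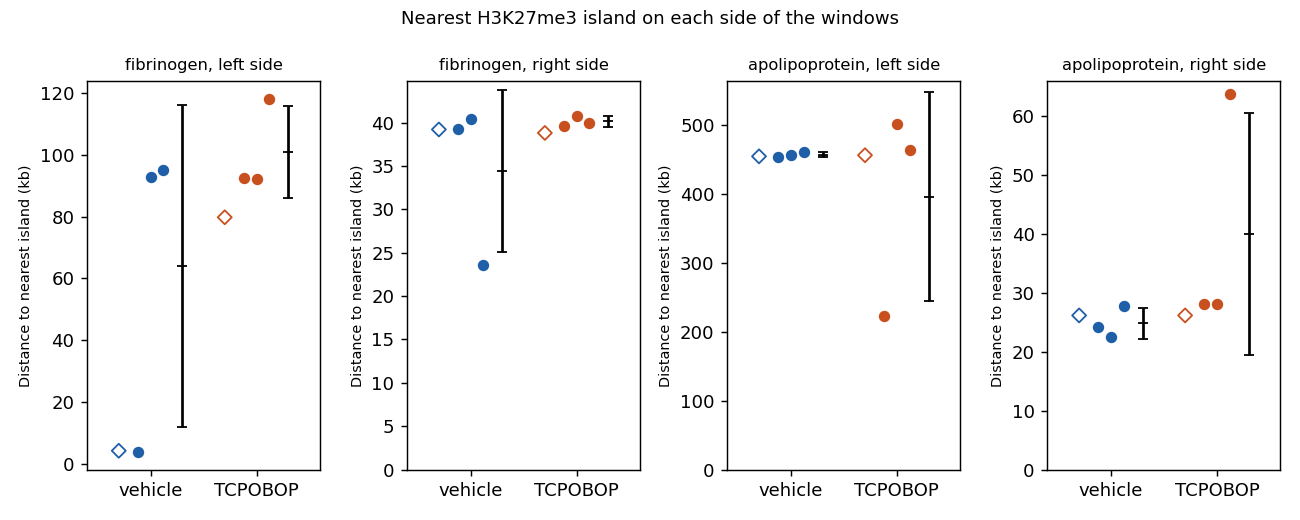
Distance in kb (y axis) from each window edge to the nearest island on the left and right, by treatment (x axis); filled points are the 3 libraries of 600 to 1100 bp, open diamonds the library of fragments over 1100 bp, and black bars the mean and SD of the 3. In each panel 1 liver stands away from the others: vehicle liver 1 at 3.8 kb, vehicle liver 3 at 23.6 kb, TCPOBOP liver 1 at 222 kb and TCPOBOP liver 3 at 63.8 kb.

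Cover of the 500 kb flanks overlapped between treatments on all 4 sides. Left of the fibrinogen window it averaged 15.0 ± 3.07% in vehicle and 9.79 ± 7.16% in TCPOBOP livers, and right of it 11.1 ± 3.72% and 17.8 ± 4.58% (SD, n = 3 each, exact permutation p = 0.2 for each). Left of the apolipoprotein window it was 5.60 ± 2.84% and 4.13 ± 4.01%, and right of it 42.4 ± 24.1% and 34.6 ± 14.1% (SD, n = 3 each, exact permutation p = 0.6 for each). A p that misses the threshold does not show that the flanks were alike. The largest spread, right of the apolipoprotein window, came from 14.7% in vehicle liver 3 against 58.9 and 53.7% in the other vehicle livers.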

How the data were processed

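H3K27me3 ChIP-seq of 8 libraries from 6 livers was deposited as 1 list of islands per library. Bowtie2 2.3.2, SICER 1.1 and build mm9 are named in the submitters' processing notes, with no roles. Whether an input was used was not given in the sources used here. The deposited score of an island is the authors' value relative to a background for that library, and was used only to rank or filter islands, with a common minimum as an alternative. Read depth is unknown, which limits all statements to listed islands. Coordinates are 1-based.

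Percent under islands, distance to the nearest island (left is toward lower coordinates), the island-free stretch and the cover of 500 kb flanks were computed per library. The same was done for all end-to-end windows of 55 kb, in place of random draws, as a description. Treatments were compared by two-sided exact permutation tests over 20 labellings, with Benjamini-Hochberg adjustment over 10 tests. The cover and distance code was tested on 363 windows with simulated islands, with 0 errors. Python 3.11.15, numpy 2.4.6 and matplotlib 3.10.9 were used.

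The members, windows and lists were chosen with earlier results of these data known. Named were the 7 members, the 4 protein-coding neighbours per side, the nearest islands and the nearest shared cores. Edge spread, flank unevenness and flank cover of all windows were added after seeing the data. Promoters of 6 of 7 members were found in the RefSeq table of GRCm38.p6. Apoc3 had none. No gene was placed on mm9, so islands were not assigned to genes. Replicates of a group were separate livers.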

Additional observations from a re-analysis of the deposited data

How the results depend on the processing

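Both windows stayed at 0% in all 6 livers with the score minimum, with lists trimmed to equal covered length and with the replicate 1 libraries of each treatment merged. The minimum and the trimming only remove islands, and the libraries merged in were at 0% themselves. None of these settings could therefore change the value. Widening the windows by 10 kb on both sides gave values that the distances above had already fixed. The apolipoprotein window stayed at 0%, since its nearest island in any of the 6 livers was 22.6 kb away, in vehicle liver 2. The fibrinogen window took in the weak island of vehicle liver 1, 3.8 kb away, for a difference of -2.76 percentage points. Of 154 alternative values, 142 were counted as unchanged, 11 turned and 1 moved. A difference other than in window cover counted as unchanged where it kept its sign, whatever its size. The right fibrinogen distance so counted when it went from 5.73 to 44.8 kb with the score minimum. A share of windows counted so within a set ratio. Some values could not change, such as the differences with the replicate number as a block, so the count does not measure stability. At equal covered length, TCPOBOP minus vehicle became -4670 kb for the left distance, -238 kb for the right distance and -4908 kb for the island-free stretch of the fibrinogen window. Vehicle liver 1 then had its next left island 14125 kb away, and the right distances of vehicle livers 1 and 2 were 692 and 216 kb. For the apolipoprotein window the left distance became 37.6 kb and the stretch 52.8 kb. With 250 kb flanks its left flank cover became 1.28 percentage points. With 1 liver left out, its left distance ranged from -114 to 25.9 kb, its stretch from -92.9 to 47.1 kb, both positive without TCPOBOP replicate 1, its left flank cover from -3.40 to 0.60 points and its right flank cover from -21.7 to 0.40 points; the cause was not tested. With the score minimum the right distance of the fibrinogen window separated the treatments, at 39.2, 40.4 and 40.0 kb against 70.0, 40.8 and 143 kb (exact permutation p = 0.1). At equal covered length its right flank did so too, by 6.27 points (exact permutation p = 0.1). No alternative gave a p under 0.1. The share of windows at 0% in all 6 libraries ranged from 51.2 to 77.5% on chromosome 3 and from 35.1 to 58.8% on chromosome 9 over its alternatives. The labels give replicate numbers with no shared animal, so the numbers were not taken as pairs. Over windows the deviations of livers with the same number had correlations of 0.123, 0.063 and 0.316. Livers with different numbers were not correlated for comparison, so these values do not decide whether the numbers mark pairs. With the replicate number as a block the differences were as without it, 37.1 kb for the left fibrinogen distance and 15.2 kb for the right apolipoprotein distance among them, and the exact sign-flip p ranged from 0.25, the smallest possible, to 1.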
